A study of Mus musculus with 22 samples.

Results

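Smooth muscle contractile genes were followed through the differentiation of mouse pluripotent stem cells into osteoblast cultures. The 10 genes were chosen by symbol: Acta2, Tagln, Cnn1, Myh11, Actg2, Des, Mylk, Myocd, Lmod1 and Smtn. All 10 were found in each of the 3 deposited comparison tables, among 18632 genes that the tables share. All cells carry Col2.3GFP: green fluorescent protein is driven here by part of the promoter of a collagen I gene, so the sort marks cells in which that promoter is active. The groups were GFP-positive cells sorted from osteoblast cultures of embryonic stem cells (sorted ESC-OB GFP+, 3 samples), unsorted cultures of that kind (ESC-OB, 3) and the undifferentiated cells (ESC, 3). Beside them stood osteoblast cultures of induced pluripotent stem cells (iPSC-OB, 2) and undifferentiated iPSC (2 in the labels). The labels name 1 mESC and 1 miPSC line, at passage 20 to 30 for ESC and ESC-OB and 10 to 20 for iPSC and iPSC-OB. The cultures had passed through 6 days as embryoid bodies, with 0.1 µM retinoic acid between day 3 and day 5, and were taken after 35 to 40 days. Undifferentiated cells had been grown either on feeder layers of mouse embryonic fibroblasts or without feeders, and the sources used here do not say which samples had which. They do not say either whether samples of a group were separate cultures, and p-values then cover only the spread between these samples, which may be technical.

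Smooth muscle contracts when calcium and calmodulin activate myosin light chain kinase (Mylk), which phosphorylates the light chain of smooth muscle myosin (heavy chain Myh11) and lets it pull on filaments of alpha and gamma smooth muscle actin (Acta2, Actg2). Calponin (Cnn1), transgelin (Tagln), smoothelin (Smtn) and leiomodin (Lmod1) bind these actin filaments, and desmin (Des) forms intermediate filaments. Myocardin (Myocd) switches many of these genes on together with serum response factor (Srf), which binds a DNA element called the CArG box. Acta2, Tagln and Cnn1 are also made by myofibroblasts, pericytes and cultured mesenchymal cells, while Myh11 and Smtn are read as signs of a more mature smooth muscle cell. Des, Myocd and Acta2 are made in developing heart muscle too.

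The files hold the authors' own results for each gene and no values per sample, so the spread over samples is seen only through the standard error (SE) of each log2 change. Group levels below are estimates in CPM (counts scaled to a fixed library total) solved from the deposited base means and changes. The solving takes each change as the exact ratio of group means. Yet genes with reads in only 1 ESC-OB library had median log2 changes of 1.68 to 2.27, and in only 1 iPSC-OB library 0.98 to 0.99. Low levels in ESC and iPSC may therefore be estimated too high, by different amounts. Read depths inferred from the lowest base means were 20.2 to 27.1 M reads in sorted ESC-OB GFP+, 6.30 to 10.8 M in ESC-OB and 4.51 to 19.6 M in ESC, while iPSC-OB had 9.40 to 16.5 M and iPSC 10.0 to 12.5 M. For iPSC the depths solved to 3 libraries, where the labels list 2. A floor of 3 reads over a group corresponds to 0.102 CPM in ESC and 0.0886 CPM in iPSC, and covers counting error only. All 8 pluripotency markers checked fell in all 3 tables, and Col1a1, a chain of type I collagen, had 5702 CPM in sorted ESC-OB GFP+, 2587 in ESC-OB and 10.3 in ESC. Of 12 osteoblast markers 7 rose and 2 (Alpl and Spp1) fell in ESC-OB, where 38.6% of all genes were called higher and 31.0% lower. In sorted cells 8 rose and 1 fell, against 39.1% and 32.4%, and in iPSC-OB 8 rose and 1 fell, against 26.1% and 23.1%. The marker that fell in all 3 was Alpl, with log2 changes of -4.93, -3.02 and -3.35 in that order.

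ESC-OB against ESC asks which genes change when ESC are driven towards osteoblasts. All 10 smooth muscle genes rose and none fell (adjusted p under 0.05), where 38.6% of all genes tested were called higher and 31.0% lower. Their log2 changes ran from 1.73 to 8.78 with a median of 5.89, against a median of 0.26 over all genes tested. At an unadjusted p the count of members called lower was 0 as well, and the share of all genes at that p was not computed. In cultures of mixed cells, more cells of a type and more RNA per cell cannot be told apart.

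The regulator Myocd was estimated at 13.8 CPM in ESC-OB and 0.226 CPM in ESC. It rose by 5.82 ± 0.61 in the authors' deposited table (log2 ± SE, adjusted p = 1.58e-20). Its DNA-binding partner Srf, named here after its values were seen, rose by 0.82 ± 0.18 in the authors' deposited table, at an adjusted p of 2.14e-05.

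Actin and its binding proteins covered a wide range of changes. Acta2 was estimated at 178 CPM in ESC-OB and 0.376 CPM in ESC, and rose by 8.78 ± 0.57 in the authors' deposited table, at an adjusted p of 6.84e-52. Actg2 was estimated at 16.9 CPM in ESC-OB and lay under the floor in ESC, so that it was at least 166-fold higher in ESC-OB against a floor of 3 reads over the ESC libraries. The actins are close copies of one another in their coding sequence, and counting may share reads between them, which leaves both values uncertain to that extent. Tagln was estimated at 96.3 CPM in ESC-OB and 0.850 CPM in ESC, a rise of 6.72 ± 0.49 in the authors' deposited table, at an adjusted p of 2.04e-42. Cnn1 was lower in both groups, at 8.60 CPM in ESC-OB and 0.421 CPM in ESC, with a rise of 4.25 ± 0.58 in the authors' deposited table, at an adjusted p of 1.04e-12. Of the 10 genes 9 lay above the floor in ESC, Smtn highest among them. Smtn had 80.9 CPM in ESC-OB and 22.7 CPM in ESC, a rise of 1.73 ± 0.17 in the authors' deposited table, at an adjusted p of 1.04e-22. Lmod1, which promotes the growth of actin filaments, had 19.8 CPM in ESC-OB and 1.29 CPM in ESC, a rise of 3.84 ± 0.39 in the authors' deposited table, at an adjusted p of 1.1e-21.

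The motor and its kinase moved with the filaments. Mylk was estimated at 186 CPM in ESC-OB and 0.656 CPM in ESC, and rose by 8.04 ± 0.49 in the authors' deposited table, at an adjusted p of 8.0e-60. Myh11 had 39.3 CPM in ESC-OB and 0.594 CPM in ESC, a rise of 5.95 ± 0.49 in the authors' deposited table, at an adjusted p of 2.77e-33. Des had 124 CPM in ESC-OB and 12.8 CPM in ESC, a rise of 3.17 ± 0.33 in the authors' deposited table, at an adjusted p of 5.1e-21. In the annotation used here (GENCODE M21) exons of Des, Mylk, Smtn and Tagln overlap those of genes on the opposite strand. For Tagln these are 877 bases of Gm48529 and 94 of Pcsk7, and for Smtn 556 of Gm11946. Mylk shares 333 bases with E130310I04Rik and 224 with Gm21691, and Des 220 with Gm15179. Gm48529, Gm11946 and Gm21691 are not among the genes of the ESC-OB comparison. The sources used here do not say whether reads were counted by strand, so such reads cannot be told apart.

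**Figure D1:**
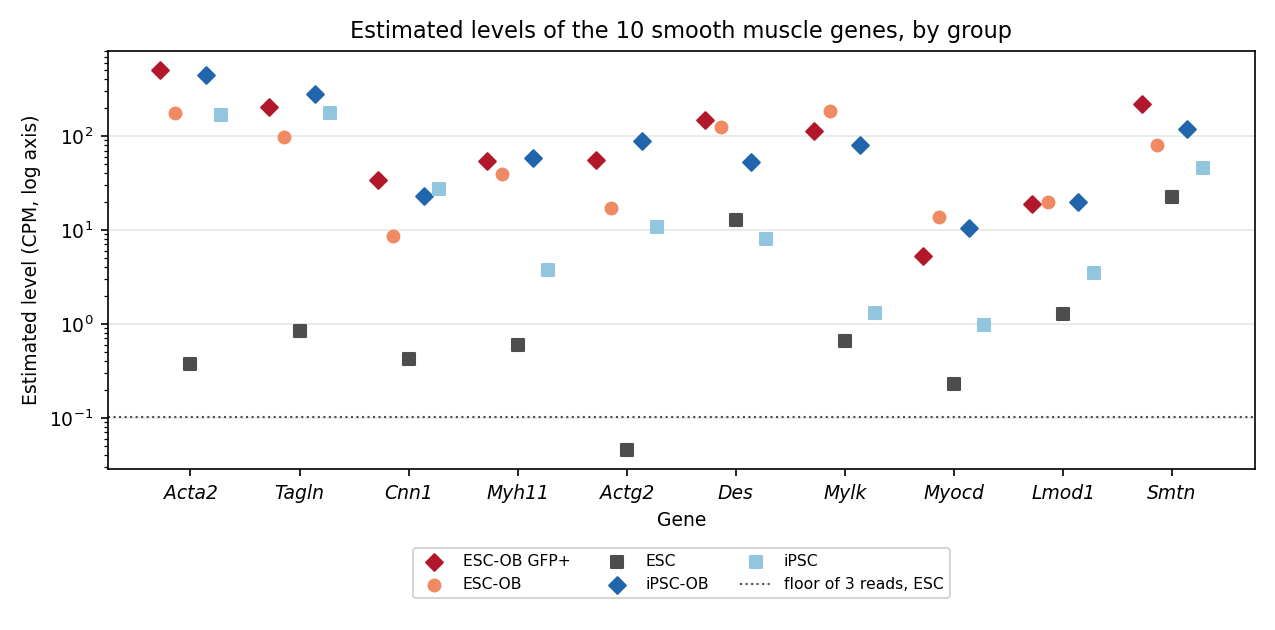
Estimated level of each gene in CPM (log axis) in sorted ESC-OB GFP+, ESC-OB, ESC, iPSC-OB and iPSC, 1 point per group, with the floor of 3 reads in ESC as a dotted line. The ESC squares lie lowest for 9 genes, and Acta2 is at 506, 178, 0.376, 448 and 168 CPM in these groups.

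Promoter sequence was matched for 6 of the 10 genes (RefSeq, build GRCm38.p6, not the authors' mm9), as 250 bases before to 50 after the listed start. The windows shown are those of Acta2, whose fitted rise in ESC-OB was among the highest of the 10, and Smtn, whose rise was the smallest. The CArG box was searched as 10 bases, a pair of C, then 6 bases of A or T, then a pair of G, a pattern that reads the same on both strands. No window of the 6 held such a box (0 of 6), against 1.63% of 32851 promoter windows. With 1 of the 6 core bases allowed to differ, a setting added after the sequences were seen, the Acta2 window held 2 boxes (CCCTATATGG, 74 bases before the start, and CCTTGTTTGG, 24 bases before it), and 9.98% of all windows held at least 1. Capitals mark these 2 boxes. The window of Smtn held none, nor did those of Cnn1, Des, Lmod1 and Mylk, so that 1 of the 6 windows held a box. A window without a box says only that these letters are not in it.
Acta2 (chr19:34255324-34255623, minus strand): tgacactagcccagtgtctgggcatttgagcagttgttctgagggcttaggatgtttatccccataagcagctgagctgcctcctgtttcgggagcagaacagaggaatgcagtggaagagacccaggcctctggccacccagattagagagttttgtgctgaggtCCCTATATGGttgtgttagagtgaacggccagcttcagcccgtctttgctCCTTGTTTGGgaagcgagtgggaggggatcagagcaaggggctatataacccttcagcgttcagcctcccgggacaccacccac
Smtn (chr11:3539243-3539542, minus strand): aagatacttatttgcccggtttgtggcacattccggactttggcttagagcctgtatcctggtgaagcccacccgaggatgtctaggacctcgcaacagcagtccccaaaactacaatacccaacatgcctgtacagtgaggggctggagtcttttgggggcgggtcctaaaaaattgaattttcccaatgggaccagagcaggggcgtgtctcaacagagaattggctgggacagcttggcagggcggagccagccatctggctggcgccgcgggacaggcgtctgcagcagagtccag

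Sorted ESC-OB GFP+ against ESC asks the same of cells with an active collagen reporter, with the same ESC libraries as control. All 10 genes rose and none fell, where 39.1% of all genes tested were called higher and 32.4% lower. Their log2 changes ran from 3.11 to 10.24 with a median of 6.25, against 0.28 over all genes tested. Acta2 was estimated at 506 CPM in sorted cells and 0.376 CPM in ESC, a rise of 10.24 ± 0.57 in the authors' deposited table, at an adjusted p of 2.44e-70. In the authors' deposited table Tagln, at 205 CPM in sorted cells, rose by 7.76 ± 0.48 and Cnn1, at 33.9 CPM, by 6.17 ± 0.57 (adjusted p = 2.07e-56 and 3.79e-26). Actg2 was at 55.1 CPM in sorted cells, at least 542-fold above the floor of 3 reads over the ESC libraries. Smtn, at 218 CPM, rose by 3.11 ± 0.17 in the authors' deposited table, at an adjusted p of 2.04e-72, and Lmod1, at 19.0 CPM, by 3.73 ± 0.39 (adjusted p = 6.95e-21). Of the motor and filament genes, Mylk was at 113 CPM in sorted cells, Myh11 at 53.5 CPM and Des at 146 CPM. Their rises in the authors' deposited table were 7.27 ± 0.49 for Mylk, 6.33 ± 0.49 for Myh11 and 3.35 ± 0.33 for Des (adjusted p = 2.34e-49, 5.67e-38 and 1.66e-23). Myocd was at 5.27 CPM in sorted cells, a rise of 4.38 ± 0.61 in the authors' deposited table, at an adjusted p of 3.17e-12.

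**Figure D2:**
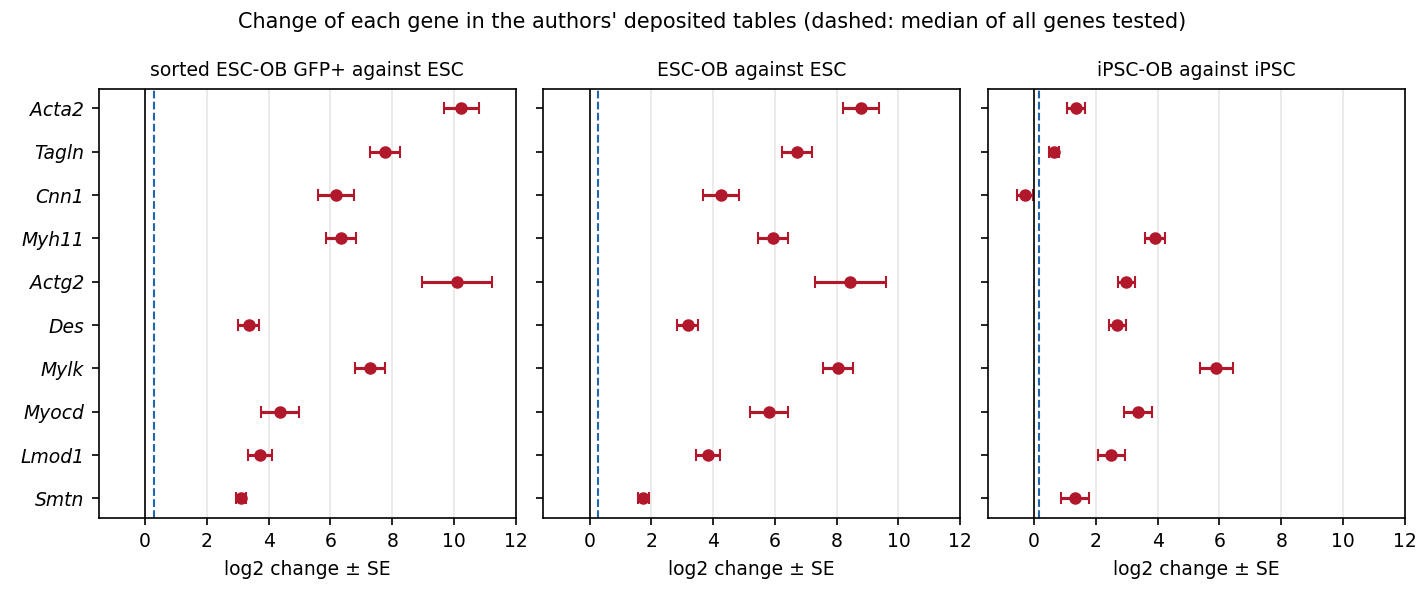
Log2 change of each gene with its SE in the authors' deposited tables, for sorted ESC-OB GFP+ against ESC, ESC-OB against ESC and iPSC-OB against iPSC, with the median of all genes tested dashed. All points lie right of 0 in both ESC panels, and in the iPSC panel Cnn1 lies at -0.30.

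The difference between the sorted and the unsorted change shows what goes with the sort on the reporter. It was tested with an SE that counts the shared ESC error on both sides, which makes it too large. Smtn was the 1 gene called, 1.37 ± 0.24 log2 units higher in the sorted change (218 CPM in sorted cells and 80.9 CPM in ESC-OB, adjusted p = 3.59e-07), and none of the 10 was called lower. Over all genes 10.7% were called higher and 12.1% lower. At an unadjusted p 2 members were higher (Smtn and Cnn1) and 0 lower, counts for which no matching share of all genes was computed. Acta2 was at 1.45 ± 0.81 (95% interval -0.13 to 3.04, adjusted p = 0.217), Tagln at 1.03 ± 0.69 (-0.31 to 2.38, adjusted p = 0.34) and Cnn1 at 1.92 ± 0.82 (0.32 to 3.53, adjusted p = 0.075). Actg2 was at 1.65 ± 1.61, Myh11 at 0.39 ± 0.69, Des at 0.18 ± 0.47 and Lmod1 at -0.12 ± 0.56, none past the test. Myocd and Mylk had negative values, -1.44 ± 0.87 and -0.77 ± 0.69 (adjusted p = 0.273 and 0.548).

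With the ESC part taken out of the error where it could be solved (for 9 of the 10, not for Actg2), 4 genes were called higher in the sorted change and 1 lower, where 18.4% and 17.5% of all genes were. Acta2 then had an SE of 0.42 (adjusted p = 0.00198), Tagln of 0.41 (adjusted p = 0.034) and Cnn1 of 0.45 (adjusted p = 1.02e-04). Myocd was lower with an SE of 0.36 (adjusted p = 3.29e-04), and Mylk was not called (adjusted p = 0.113). Under that error Acta2, Tagln, Cnn1 and Smtn were thus called in one direction and Myocd in the other, while Lmod1 was at -0.12 ± 0.34 and not called (adjusted p = 0.873). Cardiac markers moved with the sort as well. With the first, larger error, under which 12.1% of all genes were called lower and 10.7% higher, 8 of the 18 were called lower and none higher (0 of 18), and their summed level was 755 CPM in sorted cells and 3103 CPM in ESC-OB. Low-input kits were used where RNA was scarce, and the sources used here do not say for which samples, and Rn45s, a ribosomal RNA precursor, fell by 4.13 ± 0.31 in sorted cells in the authors' deposited table, against 0.27 ± 0.31 in ESC-OB, which did not pass (adjusted p = 8.21e-39 and 0.443). The part of the kits or of this RNA in the sorted difference was not tested.

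**Figure D3:**
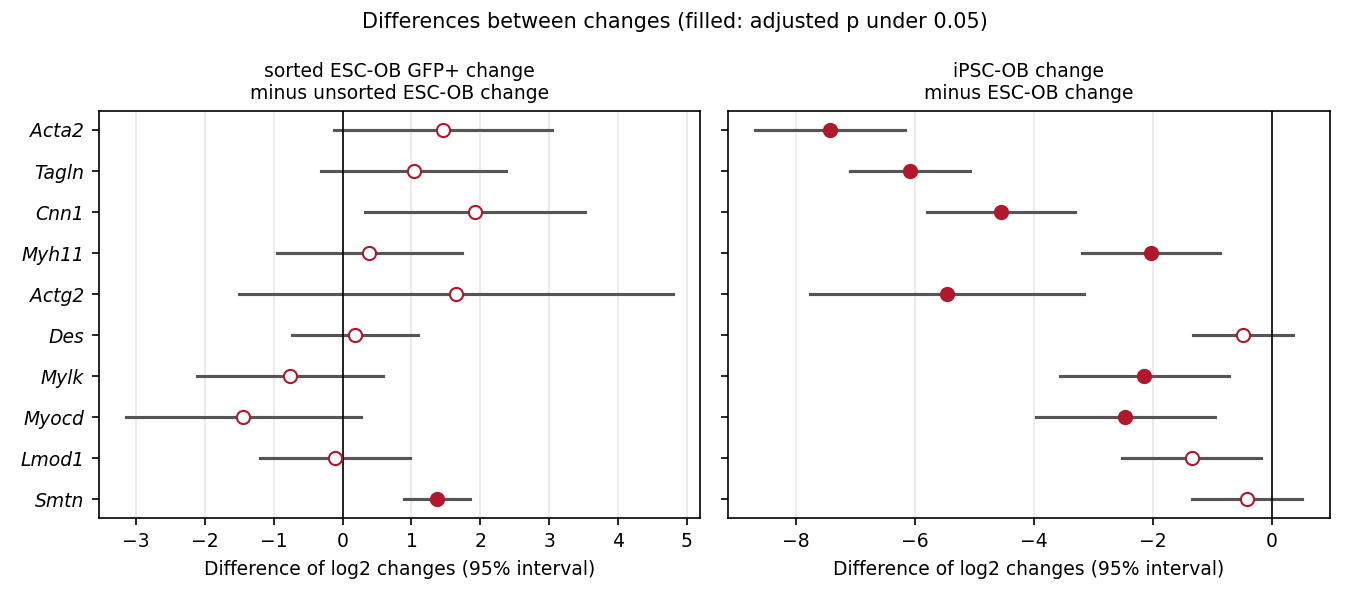
Difference of log2 changes for each gene with its 95% interval, sorted ESC-OB GFP+ minus unsorted ESC-OB on the left and iPSC-OB minus ESC-OB on the right, filled where the adjusted p is under 0.05. Smtn is the filled point on the left at 1.37, and on the right 7 points are filled, from -7.41 for Acta2 to -2.03 for Myh11.

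iPSC-OB against iPSC asks whether the same change is seen from the other cell source. Of the 10 genes 9 rose and none fell, where 26.1% of all genes tested were called higher and 23.1% lower. At an unadjusted p 0 members were lower too, with no share of all genes computed at that p. The median log2 change of the members was 2.59, against 0.15 over all genes tested. Mylk was estimated at 79.8 CPM in iPSC-OB and 1.29 CPM in iPSC, a rise of 5.90 ± 0.54 in the authors' deposited table, at an adjusted p of 3.13e-26. Myh11 was at 58.1 CPM in iPSC-OB and 3.72 CPM in iPSC, a rise of 3.92 ± 0.33 in the authors' deposited table, at an adjusted p of 2.45e-30. Myocd was at 10.4 CPM in iPSC-OB and 0.978 CPM in iPSC, a rise of 3.36 ± 0.46 in the authors' deposited table, at an adjusted p of 2.64e-12. The motor, its kinase and the regulator were therefore low in iPSC. They were a fitted 15.1-fold (Myh11), 59.9-fold (Mylk) and 10.3-fold (Myocd) higher in iPSC-OB. Actg2 was at 88.8 CPM in iPSC-OB and 10.8 CPM in iPSC, a rise of 2.99 ± 0.28 in the authors' deposited table, at an adjusted p of 9.66e-25. Des was at 53.1 CPM in iPSC-OB and 7.97 CPM in iPSC, a rise of 2.69 ± 0.27 in the authors' deposited table, at an adjusted p of 7.98e-22. Lmod1 was at 20.0 CPM in iPSC-OB and 3.44 CPM in iPSC, and Smtn at 118 CPM in iPSC-OB and 45.5 CPM in iPSC. Their rises in the authors' deposited table were 2.50 ± 0.44 for Lmod1 and 1.32 ± 0.44 for Smtn (adjusted p = 1.1e-07 and 0.00683).

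The remaining 3 genes, Acta2, Tagln and Cnn1, differed less between the groups than most of the 10, as did Smtn above. Actg2 and Lmod1, which also form or bind actin filaments, rose more than these. Acta2 was at 448 CPM in iPSC-OB and 168 CPM in iPSC, a rise of 1.37 ± 0.29 in the authors' deposited table, at an adjusted p of 1.39e-05. Tagln was at 282 CPM in iPSC-OB and 174 CPM in iPSC, a rise of 0.64 ± 0.17 in the authors' deposited table, at an adjusted p of 5.31e-04. Cnn1 was at 23.2 CPM in iPSC-OB and 27.5 CPM in iPSC, with -0.30 ± 0.24 in the authors' deposited table, not past the test, at an adjusted p of 0.321.

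The iPSC-OB change minus the ESC-OB change was below 0 for all 10 genes. It was called lower for 7 of them and higher for none, where 17.2% of all genes were called lower and 11.0% higher. At an unadjusted p 8 members were lower and 0 higher, with no matching share of all genes computed. Normalisation was separate for the 2 cell sources and the largest SE of any gene was 1.89 in the ESC-OB table and 1.29 in the iPSC table, so low genes may be limited by different amounts. It was -7.41 ± 0.64 for Acta2 (adjusted p = 1.97e-28), -6.08 ± 0.51 for Tagln (adjusted p = 8.8e-30), -5.46 ± 1.17 as fitted for Actg2 (adjusted p = 3.75e-05) and -4.55 ± 0.63 for Cnn1 (adjusted p = 2.41e-11). With ESC raised to the floor, the difference for Actg2 was about -4.39, approximate because it mixes CPM with the deposited scale. For Myocd it was -2.46 ± 0.77, for Mylk -2.14 ± 0.73 and for Myh11 -2.03 ± 0.59 (adjusted p = 0.00702, 0.0148 and 0.00343). Lmod1 (-1.35 ± 0.59, 95% interval -2.51 to -0.19), Des (-0.48 ± 0.43, -1.32 to 0.35) and Smtn (-0.41 ± 0.47, -1.34 to 0.52) did not pass (adjusted p = 0.0736, 0.442 and 0.576).

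The undifferentiated cells differed more than the cultures in estimated level, set side by side across separately normalised tables with no test. The 10 genes summed to 444 CPM in iPSC and 39.9 CPM in ESC, and to 1181 CPM in iPSC-OB and 763 CPM in ESC-OB. Acta2 in undifferentiated iPSC (168 CPM) was close to its level in ESC-OB (178 CPM). Des alone of the 10 was lower in iPSC than in ESC. Of 14 markers of fibroblasts and myofibroblasts, all 14 had a higher estimate in iPSC than in ESC. Their median level was 24.3 CPM in iPSC and 0.315 CPM in ESC, and none of the 14 lay under the floor in iPSC, against 2 in ESC. Fn1, fibronectin, held most of their sum in both undifferentiated groups, and without it the list came to 751 CPM in iPSC and 57.5 CPM in ESC, and to 5231 CPM in iPSC-OB and 5599 CPM in ESC-OB. Among them Lox, the collagen-crosslinking enzyme, was at 86.0 CPM in iPSC and 0.265 CPM in ESC, and Dcn, decorin, at 1.92 CPM in iPSC and under the floor in ESC. Of 11 pericyte markers 8 were higher in iPSC than in ESC, of 18 cardiac markers 8 were, and of 12 osteoblast markers 7 were. The share of all genes with a higher estimate in iPSC than in ESC was not computed, so all these counts stand without it. The part of feeder cells or of differentiating cells in the iPSC levels was not tested.

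**Figure D4:**
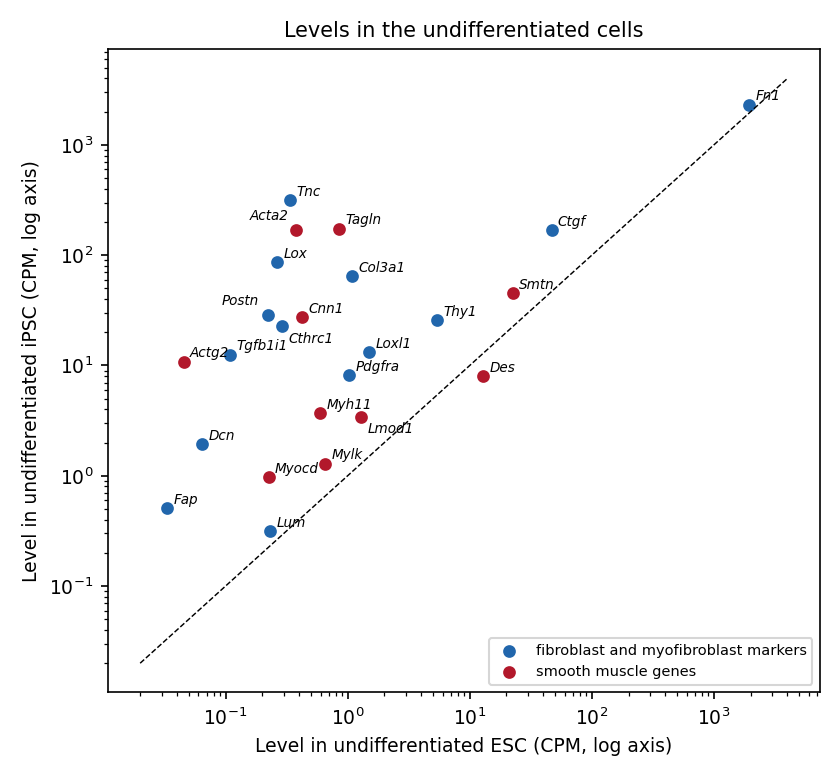
Estimated level in undifferentiated iPSC (vertical) against undifferentiated ESC (horizontal), both in CPM on log axes, for the 10 smooth muscle genes and 14 fibroblast and myofibroblast markers, with equal levels dashed. Des is the 1 point below the line, while Acta2 and Tagln stand at 168 and 174 CPM in iPSC against 0.376 and 0.850 CPM in ESC.

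Per kilobase of transcript, which lets genes be compared, Acta2 was the highest of the 10 in sorted ESC-OB GFP+ (249 CPM per kb), ESC-OB (87.3) and iPSC-OB (220.2), and Tagln was second in each (129, 60.4 and 177). In iPSC the order of the top pair was the other way round, with Tagln at 109 and Acta2 at 82.5 CPM per kb. Smtn (6.69) and Des (4.24) led in ESC. Myocd was the lowest of the 10 in all 3 kinds of culture, at 1.07 CPM per kb in sorted ESC-OB GFP+, 2.79 in ESC-OB and 2.11 in iPSC-OB. No spread over samples is known for these levels, so neighbours in the order cannot be told apart.

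Among the actins, myosins and calponins, widely expressed paralogs gave most of the transcripts in every group. Acta2 made up 9.28% of the transcripts of the 6 actin genes in sorted ESC-OB GFP+, 3.01% in ESC-OB and 0.00685% in ESC, and 6.95% in iPSC-OB against 2.23% in iPSC. The cytoplasmic actin Actg1 did not pass in any table, and Actb fell by 0.87 ± 0.13 in sorted cells in the authors' deposited table, at an adjusted p of 5.34e-11. Actb fell in iPSC-OB too, by 0.56 ± 0.18, and was at -0.24 ± 0.13 in ESC-OB, not past the test (adjusted p = 0.00429 and 0.0825). Among 4 conventional myosin heavy chains Myh11 held 8.83% in sorted ESC-OB GFP+, 2.34% in ESC-OB and 0.0925% in ESC, and 2.72% in iPSC-OB against 0.259% in iPSC. Its non-muscle paralog Myh9 fell by 1.05 ± 0.14 in sorted cells in the authors' deposited table but rose by 1.19 ± 0.14 in ESC-OB (adjusted p = 7.23e-13 and 7.22e-16), a difference of -2.24 ± 0.20 between the changes (adjusted p = 5.01e-26). The higher share of Myh11 in sorted cells than in ESC-OB thus came with an estimated Myh9 level of 332 CPM in sorted cells and 1509 CPM in ESC-OB. Cnn1 stayed a minor calponin, at 2.94% of the family in sorted ESC-OB GFP+, 1.10% in ESC-OB and 0.0785% in ESC, while Cnn2 rose by 4.11 ± 0.14 in ESC-OB in the authors' deposited table, at an adjusted p of 4.98e-199. Tagln held 36.0% of the transgelins in sorted ESC-OB GFP+, 24.6% in ESC-OB and 0.952% in ESC, and 41.5% in iPSC-OB against 59.2% in iPSC. Among the leiomodins the cardiac and skeletal form Lmod2 held 17.2% in sorted ESC-OB GFP+ and 60.6% in ESC-OB, and Lmod1 79.5% in sorted ESC-OB GFP+ and 36.3% in ESC-OB. Mylk held 91.4% of the myosin light chain kinases in sorted ESC-OB GFP+ and 78.8% in ESC-OB, most of the rest in ESC-OB being the cardiac kinase Mylk3 (19.6%).

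**Figure D5:**
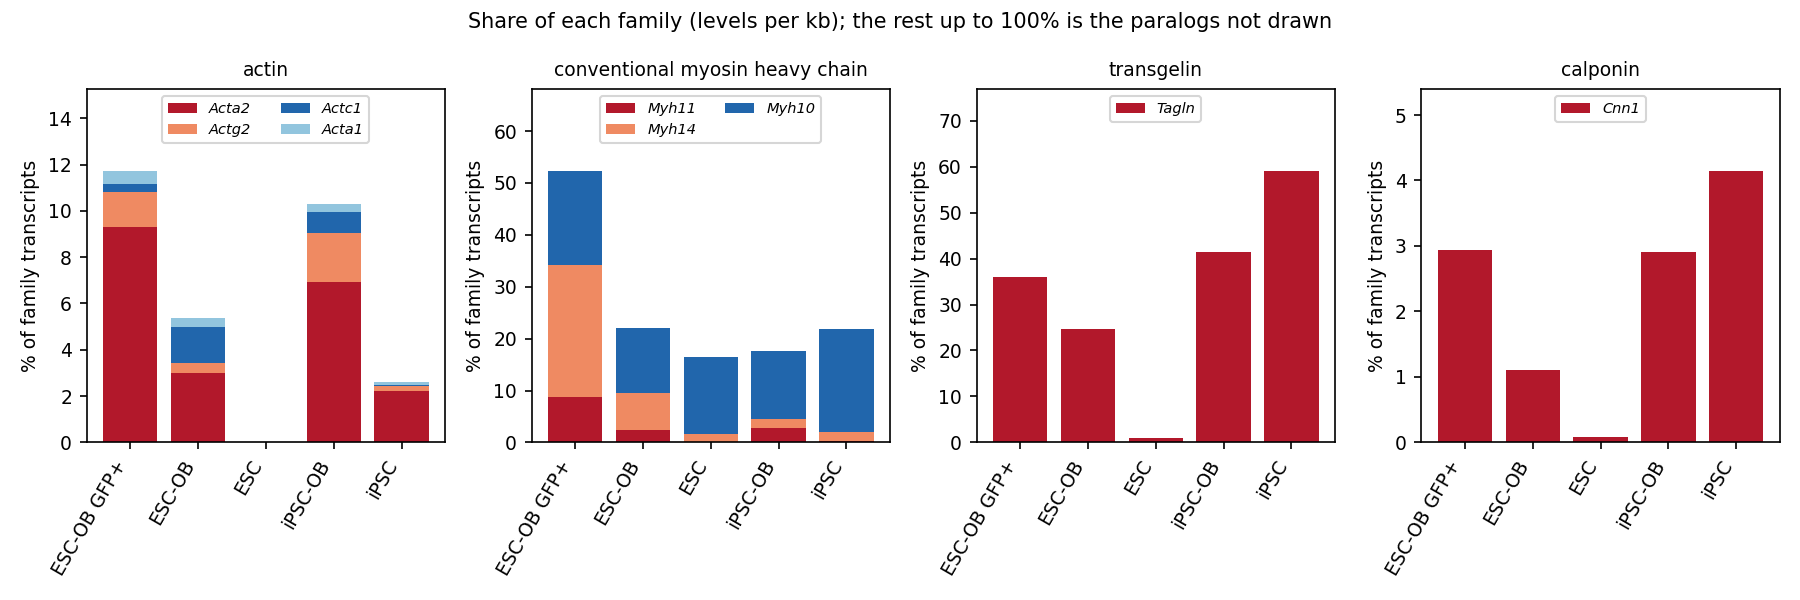
Share in percent of the transcripts of 4 gene families (CPM per kb), in sorted ESC-OB GFP+, ESC-OB, ESC, iPSC-OB and iPSC, 1 stacked bar per group. Acta2 has the largest share of the 4 muscle actins drawn, in all 5 groups, and Tagln is at 59.2% of the transgelins in iPSC, against 0.952% in ESC.

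Other parts of the contractile apparatus were followed in lists set beside the 10 genes. Their counts stand against 38.6% of all genes called higher and 31.0% lower in ESC-OB, 39.1% and 32.4% in sorted cells, and 26.1% and 23.1% in iPSC-OB. Of 22 further apparatus genes 20 rose and none fell in ESC-OB, 20 rose and 2 fell in sorted cells, and 17 rose and 1 fell in iPSC-OB, with medians of 2.86, 2.01 and 1.13, against 0.26, 0.28 and 0.15 over all genes tested. In the authors' deposited table Myl9, the light chain that Mylk phosphorylates, rose by 9.54 ± 0.70 in ESC-OB and Itga8, an integrin chain, by 8.71 ± 0.34 (adjusted p = 4.59e-41 and 9.73e-140). Flna, filamin A, and Fhl1 were at 0.06 ± 0.17 and 0.51 ± 0.25 there, not past the test, in the authors' deposited table, at an adjusted p of 0.742 and 0.0546. Myl9 rose by 1.78 ± 0.23 in iPSC-OB in the authors' deposited table, at an adjusted p of 1.83e-13, with 128 CPM in iPSC-OB and 36.2 CPM in iPSC, and its iPSC-OB change minus that in ESC-OB was -7.76 ± 0.74 (adjusted p = 1.31e-23).

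Of 20 genes that regulate smooth muscle transcription 18 rose and 2 fell in ESC-OB, 13 rose and 3 fell in sorted cells, and 13 rose and 1 fell in iPSC-OB, where 38.6%, 39.1% and 26.1% of all genes were called higher and 31.0%, 32.4% and 23.1% lower. Gata6, a factor of heart, gut and vessel smooth muscle, rose by 8.80 ± 0.48 in ESC-OB in the authors' deposited table, and Prrx1, of limb and craniofacial mesenchyme, by 9.97 ± 0.94 (adjusted p = 2.76e-74 and 1.82e-25). Elk1, which competes with myocardin for Srf, fell by 1.99 ± 0.19 in ESC-OB in the authors' deposited table, and Klf5 by 0.60 ± 0.18 (adjusted p = 3.18e-24 and 0.00186). Srf itself was at -0.18 ± 0.18 in sorted cells (not past the test) and fell by 0.88 ± 0.37 in iPSC-OB in the authors' deposited tables, at an adjusted p of 0.372 and 0.0366.

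Of 20 genes that set myosin phosphorylation 14 rose and 2 fell in ESC-OB, 14 rose and 4 fell in sorted cells, and 7 rose and 1 fell in iPSC-OB. Over all genes 38.6%, 39.1% and 26.1% were called higher, so the iPSC-OB count lay near the share of all genes. Prkg1, the cyclic GMP-dependent protein kinase, rose by 7.68 ± 0.84 in ESC-OB in the authors' deposited table, and Gucy1a3, a chain of the cyclase that makes cyclic GMP and under the floor in ESC, by a fitted 7.52 ± 0.96, at an adjusted p of 2.59e-19 and 2.5e-14. The calmodulin genes Calm3 and Calm2 fell by 0.41 ± 0.13 and 0.25 ± 0.12 in ESC-OB in the authors' deposited table, at an adjusted p of 0.00206 and 0.0426. Of 20 receptors and channels 16 rose and none fell in ESC-OB, 15 rose and 1 fell in sorted cells, and of the 18 tested in iPSC-OB 4 rose and 1 fell, a count of rises no higher than the 26.1% of all genes would give. Adra1a and Chrm2, receptors for noradrenaline and acetylcholine, rose by 8.07 ± 1.26 and 7.87 ± 1.27 in ESC-OB in the authors' deposited table, at an adjusted p of 4.54e-10 and 1.68e-09, yet their estimated levels were 10.7 and 8.76 CPM in ESC-OB and under the floor in ESC. P2rx1 and Npr1 were at -1.35 ± 1.53 and 0.20 ± 0.23, not past the test, in the authors' deposited table, at an adjusted p of 0.432 and 0.442.

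Markers of other cells that make some of the 10 genes rose beside them, in comparisons where 38.6% (ESC-OB) and 26.1% (iPSC-OB) of all genes were called higher and 31.0% and 23.1% lower. Of 18 cardiac markers 17 rose and none fell in ESC-OB, and 14 rose and none fell in iPSC-OB, Myh7, a heart myosin, by 9.53 ± 0.44 in ESC-OB in the authors' deposited table, at an adjusted p of 3.53e-102. Their summed level was 3103 CPM in ESC-OB and 143 CPM in ESC, and 949.9 CPM in iPSC-OB and 70.2 CPM in iPSC. Of 16 skeletal muscle markers 15 were in the ESC tables, of which 11 had an adjusted p in ESC-OB, 6 rose and 1 fell. Among them Myh2, a fast skeletal myosin, was at 4.48 CPM and Tnni2, a fast troponin, at 2.85 CPM in ESC-OB, both called higher and both under the floor in ESC, while Mylpf, a fast myosin light chain, had 3.62 CPM in ESC-OB and 113 CPM in ESC. Myod1, Myf5 and Myf6, factors of that lineage named here after their values were seen, lay under the floor in ESC-OB. Myog, a further such factor of the list, is not described here, and of the 15 markers 4 lay under the floor in ESC-OB. Of 11 pericyte markers 8 rose and none fell in ESC-OB, with Vtn up by 8.43 ± 0.94 and Cspg4 by 6.96 ± 0.66 in the authors' deposited table, at an adjusted p of 2.22e-18 and 8.41e-25, while Mcam was at -0.43 ± 0.38 (adjusted p = 0.309). Of 14 fibroblast and myofibroblast markers 12 rose and none fell in ESC-OB, Dcn by 12.17 ± 1.02 and Lox by 11.86 ± 0.57 in the authors' deposited table, at an adjusted p of 5.3e-32 and 2.37e-93. Dcn, Vtn, Prrx1 and Gucy1a3 lay under the floor in ESC, so their fitted changes are no measure of size. The part of heart, pericyte or fibroblast cells in the changes of the 10 genes was not tested.

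Among 9817 genes with a base mean of at least 100 in both fits, those outside all lists whose 3 changes lay nearest to the median of the 10 (5.89, 6.25 and 2.59 in ESC-OB, sorted cells and iPSC-OB) were Efemp1, Oaf, Rcn3, Fbln5 and AA986860. Efemp1, a fibulin, lay at a distance of 0.326 log2 units over these 3 comparisons, and AA986860, the fifth, at 0.443.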

How the data were processed

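The submitters' processing notes name STAR 2.4.2a, DESeq2, R 3.2.2 and build mm9, with no roles or filters. Per the file headers, each of the 3 tables deposited by the authors gives a base mean (a signal: counts over size factors, averaged over the libraries of a fit), a log2 fold change with its SE, a test score (the statistic) and p-values, raw and adjusted. Tests of single genes are the authors' (the notes name DESeq2). Positive values were taken as higher in differentiated cells, because pluripotency genes are negative. Columns of values per sample numbered 0. Computed here, with Python 3.11.15, pandas 2.3.3 and scipy 1.17.1, were group levels in CPM (Rn45s left out of the total), levels per kb of the principal GENCODE M21 transcript, and differences between changes. Differences were tested with a two-sided normal test, the SE being the root of the summed squares, and Benjamini-Hochberg adjustment over all genes of both tables. In the alternative error, 1 dispersion per gene was solved from both deposited SEs, for 15441 of 19781 genes, and the others kept the larger SE. The depth step and the difference test were tested on simulated data. The simulation of the difference test gave every gene the same dispersion, so it does not cover the range of dispersions of real genes. An adjusted p was missing for 1573 (ESC-OB), 1193 (sorted) and 1478 genes (iPSC-OB). The members and lists were chosen with earlier results of these data known. Named from each further list were at most the 2 genes with the largest and the 2 with the smallest change in ESC-OB, any paralog of a member, label-check markers, and the 5 genes nearest in pattern. Srf, Rn45s, Myod1, Myf5 and Myf6 fall outside this rule and were chosen after their values were seen. Myog, also outside it, is named without a value. Calvarial osteoblasts and bone cells were not analysed here.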

Additional observations from a re-analysis of the deposited data

Results flagged for a closer look

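The change in smooth muscle genes differed between settings by a test of the difference itself in 8 cases. Smtn was 1.37 log2 units higher in the sorted ESC-OB GFP+ change than in the unsorted ESC-OB change. That is 1 of 10 members, near the 10.7% of all genes called higher there, so the count says nothing particular about the members. The iPSC-OB change lay below the ESC-OB change for Acta2 (-7.41), Tagln (-6.08), Actg2 (-5.46 as fitted, about -4.39 with ESC at the floor), Cnn1 (-4.55), Myocd (-2.46), Mylk (-2.14) and Myh11 (-2.03). Those are 7 of 10 members, where 17.2% of all genes were called lower. No file gives values per sample, so no sample could be compared with the others of its group.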

How the results depend on the processing

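No paired analysis was possible because the tables carry no values per sample, and for the same reason no replicate could be left out and no count test or other normalisation run. The counts of 10, 10 and 9 members that rose held within 1.5 times under a stricter threshold, a minimum fold, no filter, a base mean of at least 100 and re-centring, and their medians were 5.70, 6.05 and 2.53 after re-centring. A base mean of at least 100 left Myocd untested. With a minimum log2 change of 1, Tagln lost its call in iPSC-OB (0.64). For the sorted minus unsorted difference the count called higher was 2 with a base mean of at least 100 (Cnn1 joined Smtn, adjusted p = 0.0455), and with the SE without the shared ESC part 4 were higher and 1 lower. Acta2, Tagln, Cnn1 and Myocd gained calls. For the iPSC-OB minus ESC-OB difference, Mylk lost its call at an adjusted p under 0.01. With Rn45s in the total, the summed level of the 10 genes was 700.0 CPM in ESC-OB, 37.3 in ESC, 1132 in iPSC-OB and 419 in iPSC, and with 2 iPSC libraries 1108 in iPSC-OB and 397 in iPSC. Allowing 1 core substitution in the CArG box, chosen after seeing the data, gave 1 promoter with a match in place of 0. Depth limits Actg2, under the floor in ESC: raised to the floor, also chosen after seeing the data, its iPSC-OB minus ESC-OB difference was about -4.39 and kept its call.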
